A study of Rattus norvegicus with 4 samples.

Results

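Weak satellite regions of trimethylated histone H3 lysine 4 (H3K4me3) that flank a strong H3K4me3 region were followed in rat sciatic nerve, in the nerve distal to a transection and in the sham-operated nerve of the other side. Peaks of the sham and the transected list that overlapped by 1 bp or more were merged, which gave 39013 regions, 27962 of them in both lists. A satellite is a region with exactly 1 peak in each list, shorter than 1000 bp and below 79.2 normalized tags in both lists, with a gap of at most 5 kb to a merged region of at least 1000 bp in both lists, called here the strong region. The members were thus chosen by measured tag counts, called lengths and gaps. This rule found 2145 satellites beside 1840 strong regions. They were 7.67% of the regions in both lists and 17.2% of the 12491 regions that met the same limits of length and tags at any distance. The other 10346 such weak regions lay more than 5 kb from a strong region and serve here as the comparison, called distant weak regions.

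The nerves came from adult male Sprague Dawley rats, and the labels also give P42 in a field named passage, whose meaning there is not stated. There were 4 samples. 2 were of the sciatic nerve distal to the cut, taken 1 day after transection, and 2 were of the contralateral nerve, with a skin incision as the sham operation. No genetic change is named, and nothing tells if a group's samples were of different rats. Each group was pooled by the authors into 1 peak list, so no value has a replicate spread and no test between the nerves was possible. Nerve tissue holds several cell types, so a smaller share of cells with the mark and less of the mark per cell cannot be told apart. The tissue could not be checked against marker genes, because peaks were not assigned to genes.

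H3K4me3 is laid down by methyltransferase complexes of the SET1 and MLL families and marks the promoters of active genes, where it covers the nucleosomes around the transcription start. Signal is highest near the start and can extend downstream into the gene, and weaker marks also occur at some enhancers and at alternative or divergent start sites. In the sciatic nerve most cells are Schwann cells, fibroblasts, endothelial cells and immune cells, and transection sets Schwann cells on the path to a repair state as the axons distal to the cut degenerate. A weak peak beside a strong one can therefore be the outer part of a promoter domain or a separate element, and peak lists alone do not tell which.

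Depth was 22595649 tags for sham and 21307148 for transected nerve, and the caller's threshold of 8 tags was the same in both. Normalized tags are tags scaled to a total of 10000000. Levels, lengths and gaps of satellites are therefore given as a description, with no test. Satellites had 2.66 to 78.8 normalized tags in sham, with a median of 13.3, and 2.82 to 75.6 in transected nerve, with a median of 11.7. These medians stand for 30 and 25 tags before scaling. The rule asks for a called peak below 79.2 tags in both lists, so the near-complete overlap of these ranges follows from the choice. At least 20 tags before scaling in both lists were found in 1095 satellites (51.0%). Together the satellites held 0.454% of the tags in sham peaks and 0.418% of those in transected peaks.

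Satellites were shorter than their strong regions by the rule, and their median signal density was also lower. Called length had a median of 342 bp for sham and of 284 bp after transection, and in distant weak regions the medians were 368 and 286 bp. A satellite was 150 bp long, the size of 1 calling window, in 367 cases in sham, in 485 in transected nerve and in 171 in both. Signal density had medians of 35.7 and 38.8 tags per kb. The strong regions with a satellite had median densities of 237 and 236 tags per kb, median lengths of 2020 and 1957 bp, and medians of 520 and 517 tags, in sham and transected nerve. A satellite held a median of 2.83% of the tags of its strong region in sham and 2.77% in transected nerve. The word strong refers to length: 110 of the 1840 strong regions had fewer than 79.2 tags in at least 1 list. Within the limits of the rule, the tag count of a satellite had next to no relation to that of its strong region. Spearman rho was -0.073 in sham and -0.023 in transected nerve over 2145 satellites, which share lists and strong regions. Only satellites below 79.2 tags in both lists were kept, which narrows the range over which a relation could show.

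**Figure D1:**
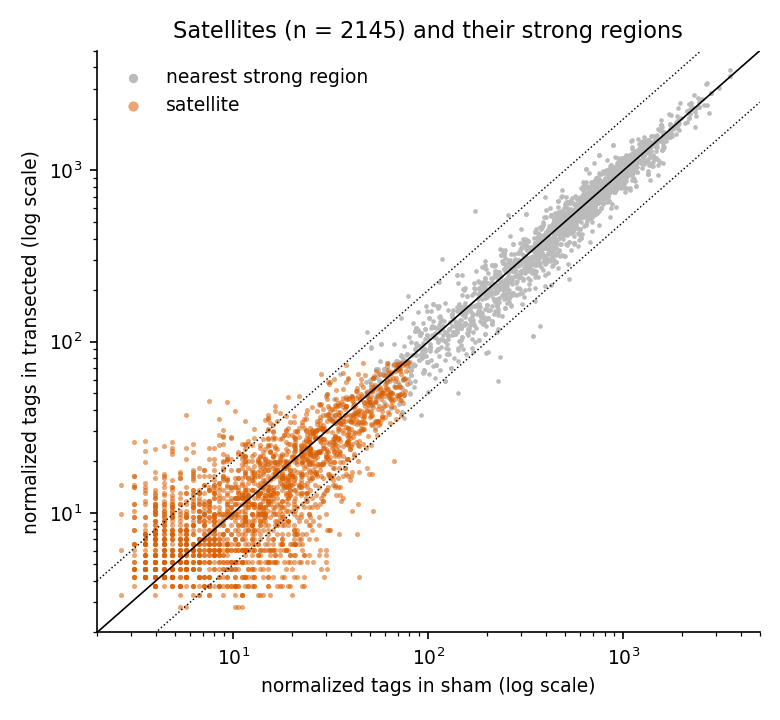
Normalized tags in sham (horizontal) and transected nerve (vertical), both on log scales, for the 2145 satellites and their nearest strong regions. Each point is 1 region, the solid line marks equal tags, and the dotted lines mark a 2-fold difference before centring; satellites reach 78.8 tags at most and scatter more widely around the line than the strong regions.

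Satellites were most frequent close to the strong region. The gap between the outer edges of the merged regions had a median of 1292 bp, with quartiles at 427 and 2839 bp. A gap of 500 bp or less was found for 623 satellites (29.0%, exact 95% interval 27.1 to 31.0). The fullest step of 250 bp was that from 250 to 500 bp with 439 satellites, against 187 from 500 to 750 bp and 63 from 4750 to 5000 bp. The caller stitched windows closer than 370 bp into 1 peak, which sets how near a separate satellite can be. Measured within 1 list, the smallest gap was 221 bp for sham and 220 bp after transection, and between merged regions 458 gaps were under 370 bp. The sides were even, with 1068 satellites (49.8%) at the lower-coordinate side of the strong region. Strong regions lay within 5 kb on both sides of 104 satellites.

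**Figure D2:**
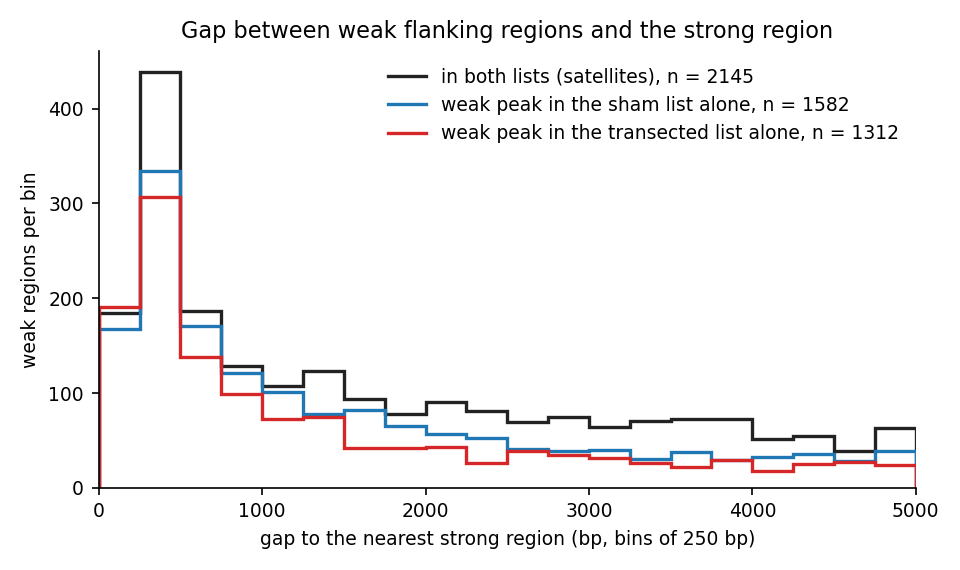
Number of weak regions (vertical) in steps of 250 bp of gap to the nearest strong region (horizontal), for the 2145 satellites and for weak peaks called in the sham list alone (1582) or the transected list alone (1312). All 3 outlines are highest from 250 to 500 bp, where they hold 439, 334 and 307 regions.

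Satellites as a group had nearly the same tags in both nerves once the lists were centred, with a wide spread. The log2 ratio of transected over sham tags, centred on the median of the 27962 regions in both lists, had a median of -0.01 and quartiles of -0.50 and 0.48. The median for distant weak regions was -0.15. The standard deviation over satellites was 0.85, against 0.72 over distant weak regions and 0.58 over all regions in both lists. Counting error alone gives a median standard error of 0.41 for the ratio of a satellite, so many of the single-region differences are no larger than counting error. Less than 1.5-fold apart were 1217 satellites (56.7%).

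At least 2-fold higher in transected nerve were 223 satellites (10.4%, exact 95% interval 9.14 to 11.8), and at least 2-fold lower were 249 (11.6%, interval 10.3 to 13.0). The background over all regions in both lists was 3.17% higher and 5.95% lower. Over distant weak regions it was 5.34% higher and 11.1% lower. The share that was lower was thus close to that of distant weak regions, and the share that was higher was 10.4% against 5.34%. The rule used the tags of both lists, so this is a description of the set. Centred on weak regions at any distance instead and giving a median of 0.12, there were 287 higher (13.4%) and 203 lower (9.46%). The shares of the other sets also shift under that centring and are not given here. As tags per kb of called length there were 52 higher and 32 lower, or 2.42% and 1.49%, where all regions in both lists gave 0.887% and 0.855% and distant weak regions gave 1.64% and 1.67%.

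As tag sums, the share that was higher exceeded that of distant weak regions in each range of tags. Among satellites with a mean below 10 tags, 14.7% of 831 were at least 2-fold higher, against 8.83% of the distant weak regions in that range. From 10 to 20 tags the shares were 11.1% of 678 and 5.95%. From 20 to 40 tags they were 5.30% of 434 and 2.50%. From 40 tags to the limit of 79.2 they were 1.49% of 202, which is 3 satellites, and 0.147% of 1359, which is 2 regions. The limit on tags in both lists narrows the differences possible in that range. The shares that were lower were 9.75% and 10.4% below 10 tags, 19.5% and 18.4% from 10 to 20, 8.06% and 8.33% from 20 to 40, and 0.495% and 1.18% above. As tags per kb the shares that were higher lay closer together below 40 tags. They were 3.01% and 2.56% below 10 tags, 2.51% and 1.61% from 10 to 20, 1.61% and 1.19% from 20 to 40, and 1.49% and 0.221% above. The intervals given for shares treat regions as independent, cover counting error only and describe these 2 lists.

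Differences in tags went with differences in called length. Over satellites the log2 ratio of tags and that of called lengths had a Pearson r of 0.84 (Spearman rho 0.79, n = 2145). Over distant weak regions that r was 0.78. Sham called the satellite wider in 1202 cases (56.0%) and transected in 763 (35.6%), and 180 had the same length. Distant weak regions were wider in sham in 61.9% of cases and in transected nerve in 28.8%, so a greater length in sham was not particular to satellites. Of the 223 higher satellites, 204 were wider in transected nerve, and 120 were 1 window long in sham, where their median was 150 bp against 433 bp in transected nerve. Of the 249 lower satellites, 246 were wider in sham, with a median of 504 bp against 150 bp in transected nerve. The edges moved about equally on both sides of a satellite: the median displacement between the lists was 51 bp at the edge facing the strong region and 49 bp at the far edge. The facing edge of the strong region itself differed by a median of 56 bp. The gap was wider in transected nerve for 1272 satellites, wider in sham for 869 and equal for 4.

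Among satellites with at least 20 tags before scaling in both lists, the highest ratio lay at 48123199 to 48123701 on chromosome 12. It held 9.29 normalized tags in sham against 44.1 after transection, 4.98-fold more after centring (log2 2.32, 95% counting interval 1.62 to 3.07). The called length was 150 bp for sham against 502 bp after transection, and dividing by it left a log2 ratio of 0.49. Its strong region, 3911 bp away, had 926.7 and 999.2 tags, a centred log2 ratio of 0.18. At 64247044 to 64247723 on chromosome 8 there were 10.2 and 39.4 tags (4.06-fold higher), over 194 and 679 bp, 448 bp from a strong region with a log2 ratio of 0.17. Divided by called length, the chromosome 8 satellite was left with only 0.12 on the log2 scale. In tag sums these first satellites differed far more than the strong region they flank. The satellites were picked for the highest ratios and the strong regions were not, so the choice itself favours such a contrast.

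The next was at 60112491 to 60113174 on chromosome 9, with 8.85 sham tags against 30.5 after transection (3.62-fold higher) at a gap of 220 bp. At 10371154 to 10371871 on chromosome 20 the tags were 8.85 and 28.2 (3.35-fold higher), but the lengths were 150 and 717 bp, and per kb the log2 ratio was -0.60, in the other direction. At 11602189 to 11602825 on chromosome 7 the tags were 8.85 and 27.7 (3.29-fold higher), with 0.80 as tags per kb. All 5 of these satellites were called wider in transected nerve, and the strong regions of all 5 had log2 ratios above 0, from 0.13 to 0.51.

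The lowest ratio by the same rule lay at 88675492 to 88676023 on chromosome 10, with 51.8 sham tags against 10.3 after transection. After centring it was 4.79-fold lower (log2 -2.26, 95% counting interval -2.98 to -1.59). Its called lengths were 531 and 269 bp, and per kb the log2 ratio was -1.37. The strong region, 2975 bp away, had 2180.1 and 2023.3 tags and a log2 ratio of -0.04, and the caller made 1 peak of it in sham and 4 in transected nerve. The satellite thus differed while its strong region held nearly the same tags.

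The second and the fourth lowest lay on chromosome 2. That at 207142842 to 207143746 had 40.7 and 10.3 tags in sham and transected nerve (3.76-fold lower, log2 -0.51 as tags per kb), and its strong region had 397 and 212.6 tags, a log2 ratio of -0.83. That at 207364045 to 207364819 had 66.4 and 20.2 tags (3.13-fold lower, -1.29 as tags per kb), and its strong region had 169.5 and 87.3 tags, a log2 ratio of -0.89. Here satellite and strong region were lower together. On chromosome 5 at 104679612 to 104680599 the tags were 43.4 and 11.3 (3.66-fold lower) over 987 and 293 bp, or -0.21 on the log2 scale as tags per kb. On chromosome 7 at 30080854 to 30081518 they were 35.8 and 11.7 (2.91-fold lower, -1.20 as tags per kb), beside a strong region with a log2 ratio of -0.93. All 5 satellites were called wider in sham and all 5 strong regions had ratios below 0.

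Over all satellites the ratio was weakly related to that of the strong region. Pearson r was 0.21 and Spearman rho 0.20 (n = 2145), and 1218 satellites (56.8%, exact 95% interval 54.7 to 58.9) lay on the same side of 0 as their strong region. Over distant weak regions and their nearest strong region r was 0.033 and 48.3% lay on the same side. These 2 shares have different bases, since the median ratio was -0.01 over satellites and -0.15 over distant weak regions. As tags per kb, r over satellites was 0.028. Among the 522 satellites whose called lengths were within 10% of each other, a set chosen after seeing the data, r was 0.10 as tag sums. With at least 20 tags before scaling in both lists, r as tag sums was 0.18 (rho 0.20, n = 283) in that set and 0.23 (rho 0.22, n = 1095) over all satellites. The relation was thus smaller as tags per kb, while at equal called length its size depended on the tag minimum. These correlations describe points that share 2 lists, their depth and, for 577 satellites, a strong region, and they carry no p-value.

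**Figure D3:**
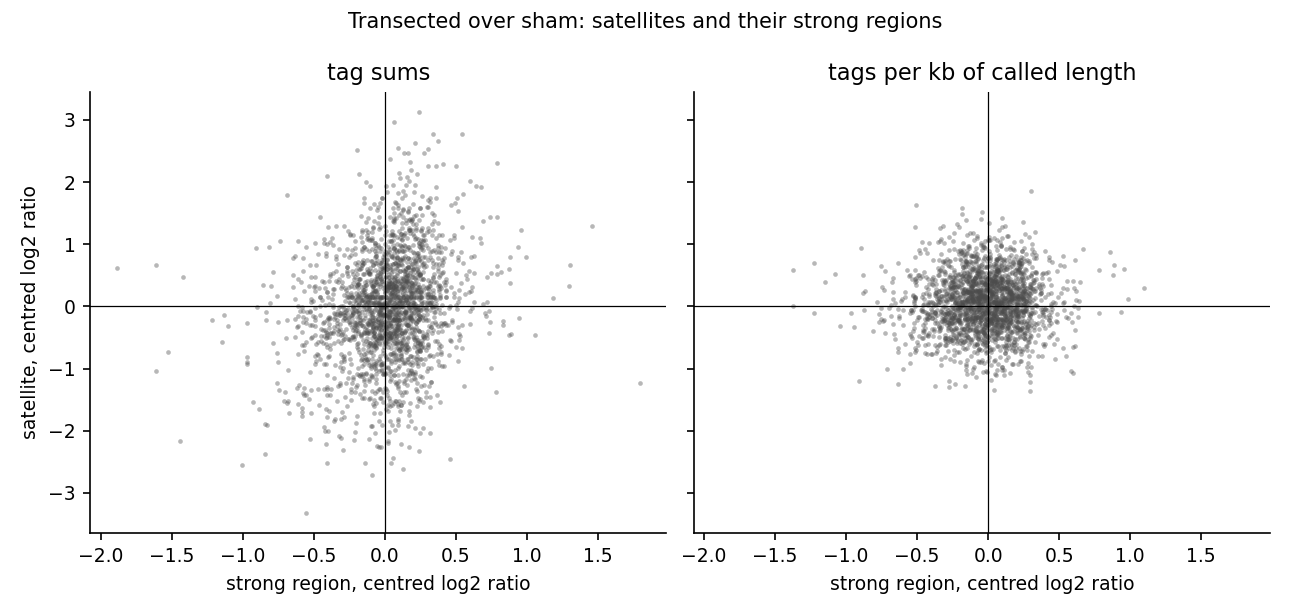
Centred log2 ratio of transected over sham for each of the 2145 satellites (vertical) against that of its nearest strong region (horizontal), as tag sums at the left and as tags per kb of called length at the right. Points are satellites and lines mark 0; the cloud leans slightly at the left (r = 0.21) and hardly at the right (r = 0.028).

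Where the strong region itself differed, satellites leaned the same way. Beside the 45 strong regions higher by 1.5-fold or more after transection, 52 satellites had a median log2 ratio of 0.42, with quartiles of -0.12 and 0.84, and 35 of them were above 0. Beside the 56 strong regions that were at least 1.5-fold lower, 65 satellites had a median of -0.31, with quartiles of -1.23 and 0.31, and 21 were above 0. The 2028 satellites beside strong regions less than 1.5-fold apart had a median of -0.01. The ranges overlapped widely, from -1.38 to 2.31 in the first class and from -2.55 to 1.79 in the second. As tags per kb the medians were 0.18, -0.07 and 0.06 in the same order. Distant weak regions whose nearest strong region was at least 1.5-fold higher had a median of -0.05, and those whose nearest was at least 1.5-fold lower had -0.18.

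**Figure D4:**
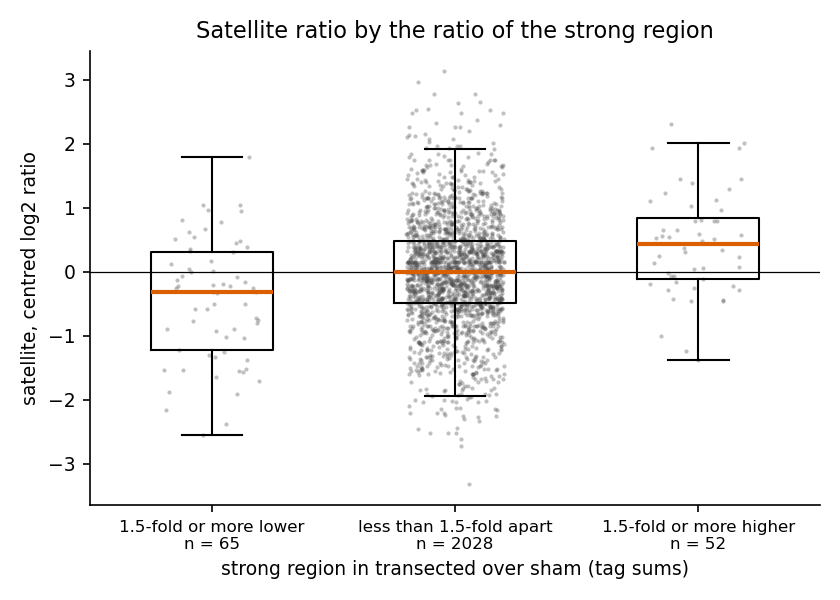
Centred log2 ratio of satellites (vertical) by the ratio of their strong region, in 3 classes from 1.5-fold or more lower to 1.5-fold or more higher in transected nerve (65, 2028 and 52 satellites). Points are satellites, boxes span the quartiles with the median in orange, and whiskers reach the last point within 1.5 box lengths; the medians are -0.31, -0.01 and 0.42 and the boxes overlap.

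Of the 223 higher satellites, 208 had a strong region less than 1.5-fold apart, 163 had one on the same side of 0, and 1 had one at least 2-fold higher. Of the 249 lower satellites, 228 had a strong region less than 1.5-fold apart, 140 had one on the same side of 0, and 3 had one at least 2-fold lower. Over all 2145 satellites, 2028 had a strong region less than 1.5-fold apart, a share near those of the higher and lower satellites. The median log2 ratio of the strong region was 0.13 beside the higher satellites and -0.04 beside the lower ones. Over all 1840 strong regions with a satellite it was 0.04, so most of them lay above 0. The counts on the same side of 0 thus have different bases for higher and for lower satellites.

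The relation to the strong region was larger for satellites within 2000 bp than for those farther away. Pearson r was 0.32 for the 623 satellites with a gap of 500 bp or less, 0.28 for 316 from 500 to 1000 bp and 0.24 for 402 from 1000 to 2000 bp. It was 0.11 for 315 satellites from 2000 to 3000 bp, 0.14 for 280 from 3000 to 4000 bp and 0.026 for 209 from 4000 to 5000 bp. In distant weak regions it was 0.13 for 1036 from 5 to 10 kb and between -0.008 and 0.032 in each step beyond 10 kb. With at least 20 tags before scaling in both lists, r was 0.30 at 500 bp or less (n = 294), 0.30 from 500 to 1000 bp (n = 158) and 0.29 from 1000 to 2000 bp (n = 200). In the next 3 steps of that set it was 0.15, 0.18 and 0.086, and from 5 to 10 kb it was 0.069 (n = 625). As tags per kb no step was above 0.066 in either direction.

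The ratio itself had little relation to the gap within 5 kb, with a Spearman rho of -0.060 for the ratio and -0.062 for its size (n = 2145). The share at least 2-fold higher was 12.4% at 500 bp or less, 7.66% from 4000 to 5000 bp, 6.85% from 5 to 10 kb and 4.53% beyond 200 kb. The share at least 2-fold lower was 11.6%, 9.57%, 9.94% and 12.8% in the same steps. The share of regions called wider in transected nerve was 39.5%, 33.0%, 34.7% and 25.6% in the same steps. Taking every step, the share that was lower had no order within 5 kb. From 10 to 20 kb it was 9.82%, and it was larger in each step beyond, at 10.9%, 11.5% and 12.8%. Median tags in sham were 11.5 at 500 bp or less and 14.6 from 4000 to 5000 bp. The part of tag level and of called length in the order by gap was not tested.

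**Figure D5:**
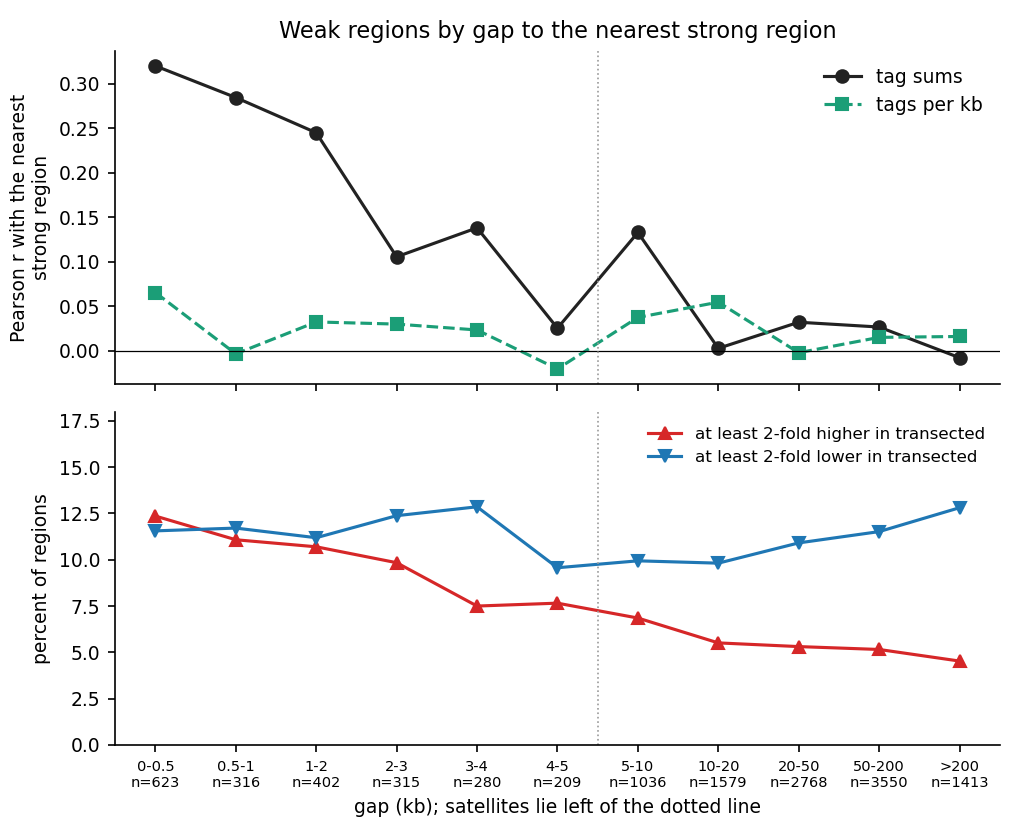
Weak regions in both lists by gap to the nearest strong region (horizontal, kb, with the number of regions), satellites left of the dotted line and distant weak regions right of it. The upper panel shows Pearson r of their ratio with that of the strong region, from 0.32 at the left to -0.008 at the right as tag sums and never above 0.066 as tags per kb, and the lower panel shows the percent at least 2-fold higher (12.4% to 4.53%) or lower in transected nerve.

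Strong regions with the largest differences had satellites of either direction. The strong region with the highest ratio among the 1840, at 20538681 to 20542959 on chromosome 16, had 174.3 sham tags against 577.7 after transection (3.48-fold higher). Its satellite at 20545058 to 20545425 had 9.29 and 3.75 tags, a log2 ratio of -1.24 (95% counting interval -2.62 to -0.005), in the opposite direction. The next, at 76196519 to 76198416 on chromosome 10, had 116.8 and 305.5 tags, and its satellite 905 bp away had 4.43 and 10.3 tags (log2 1.29). The third, at 80831475 to 80833817 on chromosome 16, had 78.3 and 184.4 tags, and its satellite had 7.52 and 11.3 (log2 0.66, interval -0.30 to 1.64).

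The strong region with the lowest ratio, at 17102064 to 17104312 on chromosome 14, had 227.9 sham tags against 58.7 after transection. Its satellite 4660 bp away had 3.54 and 5.16 tags (log2 0.61, interval -0.83 to 2.13), a difference within counting error. That at 274551885 to 274554031 on chromosome 1 had 345.6 and 107.9 tags, and its satellite had 11.1 and 5.16 (log2 -1.04, interval -2.20 to 0.05), which became 0.01 as tags per kb. That at 171878606 to 171881555 on chromosome 1 had 372.2 and 123 tags, and its satellite had 10.6 and 6.1 (log2 -0.73, interval -1.83 to 0.30). Of these 6 satellites, 4 lay on the same side of 0 as their strong region.

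Most strong regions had a single satellite: 1568 had 1, 241 had 2, 29 had 3 and 2 had 4. In 119 strong regions with satellites on both sides, the ratios of the nearest satellite of each side had a Pearson r of 0.069 (Spearman rho 0.046), and 61 pairs (51.3%) lay on the same side of 0. As tags per kb r was -0.16. In the 38 such pairs with at least 20 tags before scaling throughout, r was -0.31, and in 57 pairs within a gap limit of 2500 bp it was 0.21, so the sign depended on the choice. The 172 cases with at least 2 satellites on 1 side gave r = 0.19 for the nearest and the next. Satellites on opposite sides of a strong region thus shared a direction about as often as not, and the difference between these values of r was not tested.

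The strong region at 11607359 to 11614599 on chromosome 7 had 4 satellites, all at its lower-coordinate side and all with ratios above 0, though the counting intervals of the second and the third from outside held 0, while it held 1566.2 sham tags against 1840.7 after transection itself (log2 0.30). From the outermost inward they had 8.85 and 27.7 tags, 3.54 and 5.63 tags, 15.0 and 19.2 tags, and 4.43 and 24.4 tags in sham and transected nerve. The innermost, at 11606342 to 11606907, had a log2 ratio of 2.53 (95% counting interval 1.54 to 3.68) over 150 and 565 bp, and 0.53 as tags per kb. The strong region at 22803981 to 22807905 on chromosome 8 also had 4, 1 on the lower side and 3 on the higher side. Their log2 ratios were 0.53, 0.00, 0.52 and 0.03 from low to high coordinate, and all 4 counting intervals held 0.

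The strong region with 3 satellites that comes first by position, at 83758415 to 83759885 on chromosome 1, was itself low, with 50.5 sham tags against 54.4 after transection. Its satellites had 7.08 and 17.8 tags, 4.43 and 9.86 tags, and 11.5 and 11.3 tags, from the nearest outward. The first of them had a log2 ratio of 1.40 as tag sums and -0.12 as tags per kb.

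The 3 satellites with most tags summed over both lists had nearly the same tags in both nerves. The limit of 79.2 tags in each list leaves such high sums little room for a difference, so this follows from the choice. That at 38881411 to 38882117 on chromosome 10 had 78.8 sham tags against 75.6 after transection, that at 155667647 to 155668249 on chromosome 5 had 78.8 and 74.6, and that at 6797757 to 6798560 on chromosome 6 had 74.8 and 75.1. Their centred log2 ratios were 0.01, -0.01 and 0.08, and all 3 counting intervals held 0. The strong region of the last one had only 54.9 and 63.4 tags over 1209 and 1152 bp, fewer than its satellite. At the limits of the rule, the highest tag count inside was 78.8 and the lowest outside 79.2. The greatest length inside was 997 bp and the smallest outside 1000 bp. The widest gap inside was 5000 bp and the narrowest outside 5004 bp.

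The rule left out weak flanking peaks that only 1 list called. Within 5 kb of a strong region there were 1582 weak peaks in the sham list alone, 22.4% of the 7065 weak peaks of that list alone, and 1312 in the transected list alone, 33.7% of 3888. Their medians were 4.87 and 5.16 tags, and 953 and 816 were 1 window long. At least 20 tags before scaling were found in 247 of the sham peaks and 177 of the transected peaks. Flanking weak peaks called in 1 list alone were thus, added together, more numerous than the 2145 satellites called in both.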

How the data were processed

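Chromatin was digested with micrococcal nuclease and precipitated with an anti-H3K4me3 antibody, per the labels' protocols. The deposited peak lists were made by the authors with HOMER findPeaks on 1 combined tag directory per group, per the file headers, with windows of 150 bp stitched below 370 bp, a false discovery rate of 0.001 and no input library named in the command, although input libraries were made, per the labels' protocols. A filter against the surrounding 10 kb removed 0 peaks, and the clonal filter (limit 2) removed 101 sham and 109 transected peaks, per the file headers. The submitters' processing notes list CASAVA 1.8.2, Bowtie and HOMER. The genome build was not given in the sources used here, nor were versions of the last 2 tools.

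Normalized tags are a signal scaled by the authors to 10000000 tags, per the file headers. The deposited region length (another unit, in bp), findPeaks score and clonal fold ratio were used as they stand, the score as a stricter filter only and the clonal fold only to describe satellites: it exceeded 1 in 4 satellites in sham and 7 in transected nerve. Multiplying by depth gave whole tags within 0.12 for 100.0% of peaks. The last chromosome 4 peak ended at 248342340 and the last chromosome 4 gene of GRCr8 at 184404305, so that annotation is of another build, and no gene or sequence is given. Coordinates are those of the lists.

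Regions were merged and gaps, ratios and correlations computed with Python 3.11.15 (pandas 2.3.3, numpy 2.4.6, scipy 1.17.1), and the code was tested on simulated data. For a strong region of several peaks, lengths and tags were summed per list. Tag sums cover each list's own called length and tags per kb divide by it, so neither compares the same sequence. Intervals of shares and of single-region ratios are exact (Clopper-Pearson, 95%, on tags before scaling for ratios). They cover counting error only, since no molecular identifiers mark tags as separate molecules. The design had no test, with 1 pooled list per group. Named regions were the 5 highest and 5 lowest ratios with at least 20 tags before scaling in both lists, the 3 satellites with most tags, the satellites of the 3 strong regions with most of them (ties by position), and the nearest satellite of the 3 strong regions with the highest and the 3 with the lowest ratio. The satellites, limits and comparisons were chosen with earlier results of these data known. Alternatives changed the overlap, gap, length, tag, score and centring choices and the scale.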

Additional observations from a re-analysis of the deposited data

How the results depend on the processing

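Leaving out replicates was not possible, because the lists pool the samples of a group. No paired analysis was possible because the lists carry no replicate columns. Of 101 alternative values of 10 results, 71 stayed within 1.5 times the count or within the 95% interval of the value reported, and 30 moved outside. Only r with the strong region and rho with the gap could change sign and had intervals off 0, and neither changed sign. These intervals came from the Fisher transformation for correlations and from ranked values for medians, and treat satellites as independent. The median ratio and r over pairs on opposite sides, whose intervals held 0, took either sign. With strong regions of at least 2000 bp there were 1037 satellites, 128 higher and 119 lower, a median log2 ratio of 0.0596, and 849 sham and 772 transected flanking peaks in 1 list alone. With at least 20 tags before scaling there were 1095 satellites, 50 higher and 47 lower, 247 and 177 flanking peaks in 1 list alone, and r = -0.31 over those pairs. With scores at or above the lower quartile there were 892 satellites, 72 higher and 90 lower, 886 and 721 flanking peaks in 1 list alone, and r = 0.13 with the strong region. As tags per kb the median was 0.0645, with 52 higher and 32 lower, r = 0.028 with the strong region and r = -0.16 over pairs. The median was 0.12 when centred on weak regions and -0.0786 with no centring. With a gap limit of 2500 bp, r with the strong region was 0.26. Among satellites wider than 1 window in both lists, chosen after seeing the data, 100 were higher and 118 lower. Among those with lengths within 10%, also chosen afterwards, the median was 0.15 and r was 0.10. Fewer regions entered under the limits on strong length, tags, score and width, and the shares changed too, from 10.4% higher and 11.6% lower. They were 12.3% and 11.5% under the limit on strong length, and 4.57% and 4.29% with at least 20 tags. Distant weak regions with at least 20 tags gave 1.76% and 4.74%. Satellites gave 8.07% and 10.1% under the score limit, and 6.83% and 8.06% when wider than 1 window. Shares of distant weak regions under the limits on strong length, score and width are not given here. Whether satellites differ from distant weak regions under those limits is therefore not shown. The causes of the changes in shares and of the other changes were not tested. Among named satellites at least 2-fold apart, 3 changed sign as tags per kb: -0.60 from 10371154 on chromosome 20, -0.12 from 83761190 and 0.0102 from 274548760 on chromosome 1. Of those near 0, that from 83763523 on chromosome 1 changed from 0.04 to -0.11, and that from 22808619 on chromosome 8 from 0.00 to -0.09. Satellites with few tags limit precision: below a mean of 10 tags the median counting error of the log2 ratio was 0.56.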

Other observations

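Strong regions with a satellite differed in shape from the 9984 without one. Their median length in sham was 2020 bp against 1780 bp, and their median density was 237 tags per kb against 330. In transected nerve the lengths were 1957 and 1716 bp and the densities 236 and 338 tags per kb. More than 1 peak in either list made up 263 (14.3%) of the strong regions with a satellite and 1061 (10.6%) of those without. The length of a strong region is part of the rule, and its density was not. No test across samples was possible for these values.

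Chromosomes differed in the number of satellites per 100 strong regions. Chromosome 17 had 25.3 (93 satellites beside 368 strong regions) and chromosome 20 had 23.1, while chromosome 18 had 11.2 and chromosome X had 8.93 (31 satellites beside 347 strong regions). The order depended on the base. As a share of the weak regions of a chromosome, satellites were 18.8% on chromosome 17 and 17.4% on chromosome 20, near the 17.2% over all chromosomes. That share was 9.21% on chromosome 18 and 13.25% on chromosome X, and it was highest on chromosome 10 with 23.5%. The median log2 ratio of satellites lay between -0.19 on chromosome 2 and 0.18 on chromosome 12.

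A further 718 regions in both lists lay within 5 kb of a strong region and were neither satellites nor strong regions. Of these, 384 had 1 peak under 1000 bp in each list and reached 79.2 tags in at least 1 list, 278 reached 1000 bp in only 1 list, and 56 were made of several short peaks.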
